A study of Mus musculus with 30 samples.

Results

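The comparison described here was between tumors of MCA-943 and tumors of MCA-969, mouse fibrosarcoma lines that the study classed alike, as not sensitive to NK1.1+ cells. The tumors were chosen by the line named in their titles, which gave 12 of the 30 tumors sequenced, 4 of MCA-943 and 8 of MCA-969. Each line had been started from a tumor induced in a mouse with the carcinogen methylcholanthrene, kept in culture, and then grown again under the skin of C57BL/6 mice, and beads against CD45 had been used to remove hematopoietic cells before bulk RNA sequencing. In its screen the study grafted lines with and without an antibody that depletes NK1.1+ cells. The labels used here do not say whether any sequenced tumor came from a treated mouse. The strain label of MCA-943 was Ncr1Cre and that of MCA-969 was Ncr1Cre R26DTA, in which cells that express NKp46 are killed by diphtheria toxin. The labels do not say which mouse the strain refers to. The carcinogen was given to mice of these genotypes. Strain label and line therefore cannot be told apart. All 4 MCA-943 tumors were labelled not sensitive to NK cells, as were 6 of the 8 MCA-969 tumors, while the other MCA-969 tumors, called W-1D and W-2D, carried the opposite label. A line is a single primary tumor here, so the tumors of a line are separate grafts of the same cells and the tests measure the spread between grafts, not between primary tumors.

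Fibrosarcomas are made of cells of the fibroblast lineage, which build and remodel the extracellular matrix. Such cells also keep a memory of the body position they came from in their Hox genes, present peptides on MHC class I molecules, and raise both MHC class I and antiviral genes when they sense interferon. NK cells are known for weighing MHC class I, which inhibits them, against stress ligands such as the Raet1 proteins, which activate them.

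Counts per tumor ranged from 30025426 to 45111926 in MCA-943 and from 32514125 to 39971426 in MCA-969. Levels are given below as CPM, counts scaled to 1000000 per library after correction by edgeR's TMM factors, and for MCA-943 always in the order of tumors W-2G, a-1D, a-1G and a-R. Pearson correlations of log2 CPM had a median of 0.989 between tumors within MCA-943, 0.982 within MCA-969 and 0.916 between the lines. The library and index numbers in the labels fall into 3 runs, called library runs below, and all MCA-943 libraries lay in one and the MCA-969 libraries in the other 2, so that no run held both lines. What a run stands for in the laboratory is not stated. Titles also carry a letter, W or a, whose meaning is not stated. MCA-943 had 1 tumor with W and 3 with a, and MCA-969 had 4 with each. By index number all MCA-943 libraries lay in set1, while in MCA-969 the W tumors lay in set2 and the a tumors in set1. Letter and index set therefore cannot be told apart within MCA-969. The MCA-969 tumor W-2D stood apart from the other 7 in its collagen genes, whose summed level was 7544 CPM against 15654 to 20464 CPM. Without it 1979 genes were higher and 2496 lower in the comparison below. The share of counts from mitochondrial genes was 0.49 to 0.76% in MCA-943 and 1.31 to 1.68% in MCA-969. Fibroblast markers were high in both lines. The 12 markers listed, among them Col1a1, Pdgfra, Thy1 and Vim, summed to 77428 to 91980 CPM in MCA-943 and 18138 to 39185 CPM in MCA-969.

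Although classed together, the lines differed at 4549 of 16862 genes tested, or 27% of them. A gene was called where the Benjamini-Hochberg adjusted p from edgeR's quasi-likelihood test was under 0.05 and the log2 fold change at least 1 either way. Of the called genes, 2035 were higher in MCA-943 (12.1% of genes tested) and 2514 were lower (14.9%), and 1181 passed a log2 fold change of 3. The levels of all tumors of one line lay outside those of the other at 7113 genes, or 42.2%. Among the 10 pairs that the 5 lines of the series form, 3 pairs had more genes called and 6 fewer, the range being 2962 to 4959. With library run as a covariate, which rests on MCA-948 and MCA-969 because each other line lay in 1 run, 1903 genes were higher and 1876 lower, and 61.5% of the calls were kept. Run and line otherwise cannot be told apart. The run shared by MCA-948 and MCA-969 held a-2G and a-R of MCA-948 and W-1D and W-2D of MCA-969. The latter are the MCA-969 tumors labelled sensitive, so run and that label coincide within MCA-969. Calls lost under this covariate, here and below, rest on these few tumors.

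**Figure D1:**
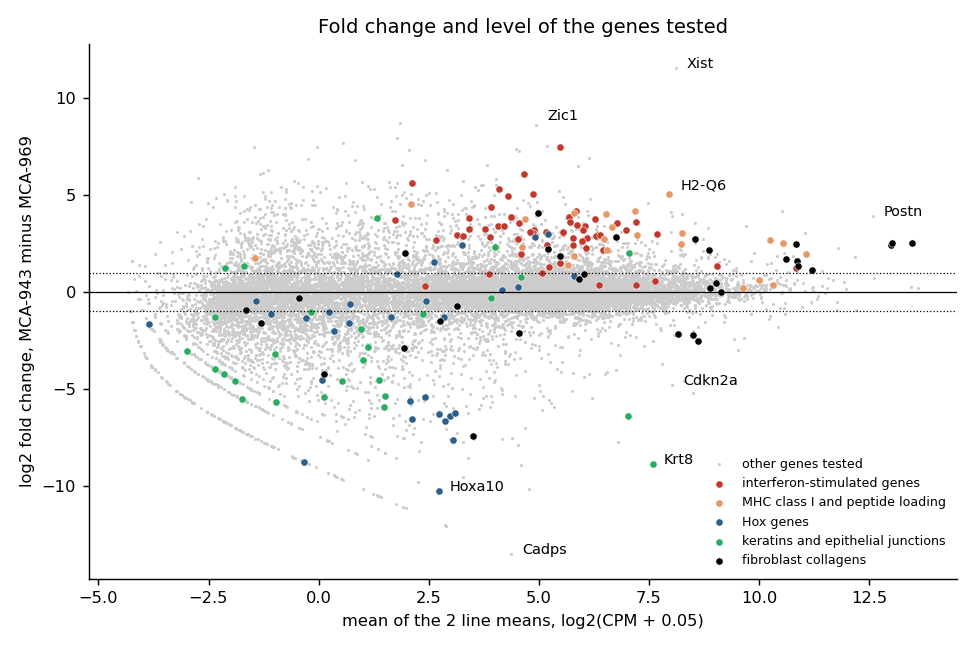
Each point is a gene tested, with the mean of both line means in log2(CPM + 0.05) on the horizontal axis and the fitted log2 fold change, MCA-943 minus MCA-969, on the vertical axis; dotted lines mark a change of 1. Interferon-stimulated genes (red) lie above 0, most Hox genes (blue) and epithelial genes (green) lie below, and the curved rows of points at the lower left are genes with 0 or very few counts in MCA-943, whose fitted fold is no bound.

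The 12 genes with the largest called differences in each direction were of several kinds. Higher in MCA-943 were Zic1, a neural and mesodermal transcription factor, the interferon-induced genes Ubd, Ifi27l2a, Sp140, Phf11b and Oas2, the smooth muscle actin gene Actg2 and the cardiac troponin gene Tnnt2, with Pcdhgb1, Tnfrsf26, Csmd1 and Extl1. Zic1 was at 56.9, 61.6, 67.6 and 58.8 CPM in the 4 MCA-943 tumors and between 0.0304 and 0.414 CPM (median 0.144) in MCA-969, with no overlap (log2 fold change 8.60 ± 0.40, adjusted p = 3.7e-16). It was not particular to MCA-943, since its mean was 68.3 CPM in MCA-972. Tnfrsf26, a decoy-type member of the TNF receptor family, was at 142, 144, 149 and 124 CPM against 0.697 to 1.81 CPM, with a median of 1.12 (log2 fold change 6.94 ± 0.26, adjusted p = 5.1e-18). Actg2 was at 129, 107, 119 and 115 CPM against 0.34 to 2.53 CPM, with a median of 1.29 (log2 fold change 6.50 ± 0.40, adjusted p = 9.5e-14).

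Lower in MCA-943 were Cadps, a factor for release of dense-core vesicles, the stem cell transcription factor Sox2, the glycosyltransferase-like gene Glt1d1, Hoxa10, the glutamate receptor gene Grik2, Ism1, Angptl7, the keratin gene Krt8, the laminin gene Lama1, the receptor phosphatase gene Ptprf, Camkv and Nptx1. No count of Cadps, Sox2 or Glt1d1 was found in any MCA-943 tumor. Cadps (chr14:12372563-12823079, GRCm38) lay between 11.6 and 68.7 CPM (median 43) in MCA-969, at least 453-fold higher taking 3 counts per library as the upper limit behind a count of 0. On the same reckoning Sox2, at 2.89 to 28.3 CPM (median 13.8), was at least 162-fold higher and Glt1d1 (chr5:127632262-127709374), at 11.4 to 16.9 CPM (median 14.8), at least 161-fold higher in MCA-969. Glt1d1 was close to 0 in the other lines too, with a mean of 0.0187, 0.0151 and 0.0138 CPM in MCA-948, MCA-970 and MCA-972. Cadps was not, with means of 24.9, 44.9 and 8.75 CPM. Ptprf showed the reverse picture, being at 0.237, 0.247, 0.151 and 0.122 CPM in MCA-943 and at 40.4 to 50.9 CPM (median 46.9) in MCA-969 (log2 fold change -7.90 ± 0.27, adjusted p = 1.8e-19), while its mean was 52.4 to 123 CPM in the other 3 lines.

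Genes that interferon switches on were higher in MCA-943 almost without exception. All 58 interferon-stimulated genes listed were tested. In MCA-943 52 were called higher and 0 lower (89.7% called, beside 27% of all genes). Their median log2 fold change was 3.07, beside -0.04 over all genes tested. In 54 of the 58 every MCA-943 tumor was above every MCA-969 tumor, against 21.7% of all genes. Those not called were Ifi27, Ifitm1, Ifitm2, Irf1, Isg20 and Trim25. Many promoters of this kind hold the interferon-stimulated response element, which the transcription factors that interferon activates bind. Promoter stretches of 3 of these genes and of B2m, from the MHC class I list described next, are shown because they let the reader see that element, the 150 bases before the start of the gene in its own orientation from RefSeq (GRCm38.p6), with each match to 2 copies of GAAA with any 2 bases between, or to its reverse complement, in capitals.
Isg15 (chr4:156200819-156200968, minus strand): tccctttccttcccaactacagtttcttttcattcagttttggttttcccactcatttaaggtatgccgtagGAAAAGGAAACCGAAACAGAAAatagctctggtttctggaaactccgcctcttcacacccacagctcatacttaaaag
Oas1a (chr5:120907526-120907675, minus strand): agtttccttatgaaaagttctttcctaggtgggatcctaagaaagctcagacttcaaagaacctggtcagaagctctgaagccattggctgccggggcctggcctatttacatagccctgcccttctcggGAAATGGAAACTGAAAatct
Gbp2 (chr3:142620513-142620662, plus strand): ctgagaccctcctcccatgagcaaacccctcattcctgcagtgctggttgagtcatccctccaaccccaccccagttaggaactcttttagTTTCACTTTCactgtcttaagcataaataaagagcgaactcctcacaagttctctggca
B2m (chr2:122147537-122147686, plus strand): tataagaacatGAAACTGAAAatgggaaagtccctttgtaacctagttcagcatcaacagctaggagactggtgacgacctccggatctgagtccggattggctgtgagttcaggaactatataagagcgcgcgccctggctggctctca
The matches in Isg15 and Oas1a overlap each other and form one run. Over the window from 250 bases before to 50 bases after the start, 24 of the 40 listed interferon-stimulated genes that matched the promoter table held such a pair on either strand, which is 60%, while 3.99% of the 27025 genes in that table did. Of the 20 matched MHC class I and loading genes 4 held it, of the 26 chemokines 3, and of the 22 Hox genes 0. A match describes the letters only.

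Among the interferon genes, Isg15, the ubiquitin-like protein whose promoter is printed above, was at 86, 86.4, 36.9 and 125 CPM in the 4 MCA-943 tumors and between 3.87 and 17.5 CPM (median 9.78) in the 8 MCA-969 tumors, so the lines did not overlap (log2 fold change 3.12 ± 0.33, adjusted p = 3.2e-09). The same held for Oas1a, a sensor of double-stranded RNA, at 34, 32.2, 13.6 and 52.3 CPM against 0.248 to 1.83 CPM, with a median of 0.702 (log2 fold change 5.32 ± 0.41, adjusted p = 5.9e-12). The amplifier Irf7 was at 126, 142, 62.4 and 243 CPM against 2.38 to 22.5 CPM, with a median of 8.59 (log2 fold change 3.75 ± 0.40, adjusted p = 4.3e-09), again without overlap. Smaller differences were found at genes abundant in both lines, such as Ly6e, at 2734, 2503, 2285 and 2811 CPM against 991 to 1152 CPM, with a median of 1092 (log2 fold change 1.25 ± 0.09, adjusted p = 3.4e-12), and Ifitm3 (log2 fold change 1.35 ± 0.14, adjusted p = 1.5e-09). Irf1 overlapped, at 181, 209.9, 252 and 304 CPM against 98 to 223 CPM, with a median of 168 (log2 fold change 0.55 ± 0.20, adjusted p = 0.018). Within MCA-943 the genes moved together, for tumor a-R held the highest level of 54 of the 58 genes and tumor a-1G the lowest of 52. Against each of the other lines MCA-943 was also higher, at 55 of the 58 genes against MCA-948 (17.7% of all genes), 48 against MCA-970 (12.6%) and 53 against MCA-972 (12.2%), with 0 lower in any. MCA-969 was higher than MCA-948 at 38 (16.8%), and lower than MCA-970 at 25 (10.7%) and than MCA-972 at 11 (10.3%), and all these comparisons share tumors.

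Antigen presentation followed the same direction. Of 23 genes tested for MHC class I molecules and the loading of peptides, 20 were higher in MCA-943 and 0 lower (median log2 fold change 2.54). That is 87% called, beside 27% of all genes. In 20 of the 23 every MCA-943 tumor was above every MCA-969 tumor, against 21.7% of all genes. The classical molecules H2-K1 and H2-D1 were at 2193, 2020.1, 1628 and 2522 CPM and at 2681, 2419, 2091 and 2914 CPM, against 250.2 to 367 CPM (median 339) and 328 to 535 CPM (median 428) in MCA-969. Their log2 fold changes were 2.67 ± 0.19 (adjusted p = 7.4e-13) and 2.54 ± 0.15 (adjusted p = 1.4e-14). The shared light chain B2m was at 3526, 3398, 2955 and 3847 CPM against 701 to 1157 CPM, with a median of 816 (log2 fold change 1.98 ± 0.12, adjusted p = 7.6e-14). The peptide pump genes Tap1 (log2 fold change 3.36 ± 0.31, adjusted p = 3.0e-10) and Tap2 (log2 fold change 4.10 ± 0.29, adjusted p = 1.3e-12) and the immunoproteasome subunits Psmb8 (log2 fold change 4.04 ± 0.28, adjusted p = 1.0e-12) and Psmb9 (log2 fold change 3.75 ± 0.32, adjusted p = 4.1e-11) were higher by more on the log2 scale. H2-Q6 (chr17:35424850-35430055), a nonclassical class I gene, was at 507, 455, 355 and 614 CPM against 4.97 to 26.4 CPM, with a median of 13.2 (log2 fold change 5.08 ± 0.33, adjusted p = 2.8e-13). Its closest relatives share sequence with it, so its counts are uncertain. The class I transactivator Nlrc5 (log2 fold change 1.37 ± 0.20, adjusted p = 1.0e-06) was higher too, and the general chaperones Calr (log2 fold change 0.38 ± 0.13, adjusted p = 0.011) and Canx (log2 fold change 0.21 ± 0.10, adjusted p = 0.06) were not called. Both lines lay above MCA-948 in this list, MCA-943 at 20 genes (17.7% of all genes) and MCA-969 at 14 (16.8%). They also lay above MCA-972, MCA-943 at 20 (12.2%) and MCA-969 at 7 (10.3%). Against MCA-970, MCA-943 was higher at 16 (12.6%) and MCA-969 lower at 11 (10.7%). MCA-948, MCA-970 and MCA-972 were all labelled sensitive, and these comparisons share tumors.

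**Figure D2:**
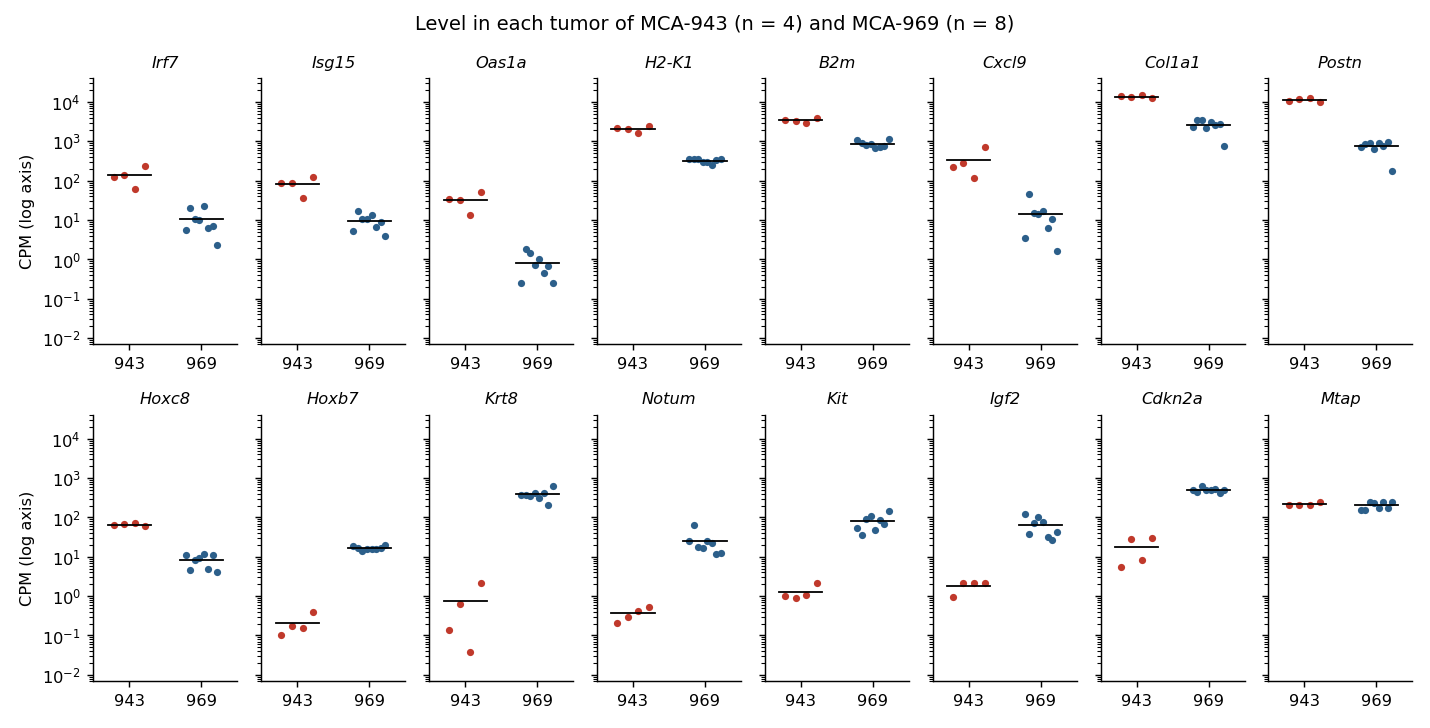
Levels of 16 genes in CPM on a log axis, 1 point per tumor, with the 4 MCA-943 tumors in red, the 8 MCA-969 tumors in blue and a bar at each mean. The lines do not overlap in 15 of the genes, with Irf7 at 62.4 to 243 CPM against 2.38 to 22.5 CPM, and they overlap in Mtap, the neighbour of Cdkn2a.

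Genes for chemokines and cytokines that act on leukocytes were also higher in MCA-943 more often than lower. Of 27 chemokine genes tested, 15 were higher and 3 lower (66.7% called). Of 41 cytokine genes 19 were higher and 7 lower (63.4% called), beside 27% of all genes. Cxcl9, an interferon-gamma-induced attractant of T and NK cells, was at 221, 288, 118 and 737 CPM against 1.64 to 46 CPM, with a median of 12.3 (log2 fold change 4.58 ± 0.61, adjusted p = 2.3e-07). Its relative Cxcl10 was at 353, 445, 314 and 844 CPM against 57.3 to 159 CPM, with a median of 114 (log2 fold change 2.17 ± 0.30, adjusted p = 5.0e-07). The monocyte attractant Ccl2 was at 534, 627, 641 and 930.3 CPM against 61.8 to 328 CPM (median 143), again without overlap (log2 fold change 2.11 ± 0.29, adjusted p = 3.5e-07). Cxcl12, a stromal chemokine, was higher as well (log2 fold change 2.47 ± 0.40, adjusted p = 5.1e-06), and Ccl25 was lower (log2 fold change -1.30 ± 0.19, adjusted p = 6.9e-07).

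Among the cytokines, Il15, on which NK cells depend for survival, was at 39.5, 40.8, 34.9 and 49.96 CPM in MCA-943 and between 1.68 and 4.26 CPM (median 2.43) in MCA-969 (log2 fold change 3.93 ± 0.23, adjusted p = 1.2e-14). Il7, a survival factor of lymphocytes, was higher by a similar measure (log2 fold change 4.38 ± 0.35, adjusted p = 8.5e-12), as was Tnfsf13b, the B-cell factor BAFF (log2 fold change 4.04 ± 0.28, adjusted p = 4.0e-13). Of the 7 that were lower, the granulocyte factor Csf3 was at 0.305, 0.296, 1.78 and 0.367 CPM against 4.38 to 74.1 CPM, with a median of 17.7 (log2 fold change -5.37 ± 0.86, adjusted p = 4.6e-06) and Il11 at 6.68, 6.02, 10.1 and 6.07 CPM against 23 to 424 CPM, with a median of 73.7 (log2 fold change -4.22 ± 0.63, adjusted p = 1.3e-06), both spread widely among the MCA-969 tumors. Lif, at 35.4, 36.1, 36.8 and 38.7 CPM against 20.2 to 372 CPM (median 50.6), overlapped between the lines (log2 fold change -1.51 ± 0.57, adjusted p = 0.022), and its call was lost when any of 3 tumors was left out, W-R of MCA-969 or W-2G or a-1D of MCA-943. With library run as a covariate the chemokines called higher were 10 in place of 15 and the cytokines called lower 2 in place of 7. Cxcl9 was not called there (log2 fold change 4.39).

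Ligands of NK-cell receptors did not share one direction. Of 23 tested, 9 were higher and 4 lower in MCA-943 (56.5% called, beside 27% of all genes). Raet1d and Raet1e, ligands of the activating receptor NKG2D, were lower, Raet1e at 0.203, 0.271, 0.68 and 0.808 CPM against 1.68 to 3.2 CPM, with a median of 1.91 (log2 fold change -2.06 ± 0.44, adjusted p = 1.8e-04). Higher were H2-T23, whose product Qa-1 presents to NKG2A (log2 fold change 2.73 ± 0.20, adjusted p = 3.1e-12), and Clec2d, ligand of the inhibitory receptor NKR-P1B, at 79, 71.1, 63.1 and 83.3 CPM against 16.3 to 27 CPM, with a median of 18.6 (log2 fold change 1.93 ± 0.12, adjusted p = 1.1e-13). Raet1e, H2-T23 and Clec2d did not overlap between the lines. With run as a covariate 6 were higher and 2 lower, and Raet1e was not called. Pvr, ligand of DNAM-1 and TIGIT, was at 42, 40.7, 45.1 and 36.6 CPM against 58.4 to 94.6 CPM (median 64.1), and its log2 fold change of -0.78 ± 0.14 (adjusted p = 1.9e-05) did not reach the limit. Of 26 genes for checkpoint ligands and immune suppression, 11 were higher and 3 lower (53.8% called). Cd80 was at 27.7, 22.2, 22.9 and 22.3 CPM against 0.284 to 1.13 CPM, with a median of 0.577 (log2 fold change 5.29 ± 0.32, adjusted p = 3.3e-14), Cd274, which encodes PD-L1, at 12.8, 16.2, 9.34 and 25.4 CPM against 0.99 to 6.33 CPM, with a median of 4.25 (log2 fold change 2.09 ± 0.37, adjusted p = 2.1e-05), and Lgals9 was higher too (log2 fold change 2.82 ± 0.28, adjusted p = 1.4e-09). Cd24a was lower, at 4.68, 1.85, 2.83 and 1.13 CPM against 9.24 to 78.7 CPM, with a median of 19.3 (log2 fold change -3.26 ± 0.73, adjusted p = 3.6e-04), and was not called with run as a covariate.

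Leukocyte genes moved with these lists in spite of the CD45 beads. Of 10 leukocyte markers 9 were higher in MCA-943 and 0 lower (90% called). Of 14 markers of NK cells and ILC1 13 were higher (92.9%), beside 27% of all genes called. Among the tumors with letter a, which leave out W-2G of MCA-943, 5 of each list were higher. Ptprc, which encodes CD45 itself, was at 25.1, 18.7, 3.14 and 2.94 CPM against 0.402 to 2.54 CPM, with a median of 0.58 (log2 fold change 3.53 ± 0.79, adjusted p = 3.2e-04), and in bulk RNA fewer cells of a type and less RNA per cell cannot be told apart. Cd53 was at 22.6, 21, 13 and 20.01 CPM against 0.585 to 2.33 CPM, with a median of 0.93 (log2 fold change 4.04 ± 0.50, adjusted p = 6.0e-08). Ncr1, the gene of NKp46, was at 3.29, 0.0987, 0.0378 and 0.318 CPM against 0 to 0.181 CPM (median 0.0138), high in tumor W-2G alone, and without that tumor it was not called. Cd8a was at 0.847, 1.6, 0.34 and 0.539 CPM against 0 to 0.0557 CPM, with a median of 0.0118 (log2 fold change 5.17 ± 0.78, adjusted p = 1.5e-06). The summed level of the 10 leukocyte markers was 335 to 480 CPM in MCA-943 and 213 to 310 CPM in MCA-969, mostly from Arhgdib, the member that was not called, at means of 302 and 232 CPM. That of the 14 NK and ILC1 markers was 82.9 CPM in W-2G, 31.9 to 39.7 CPM in the other 3 MCA-943 tumors and 23.3 to 42.0 CPM in MCA-969, so that those 3 lay within the MCA-969 range, again mostly from the uncalled member, Itga1, at 23.6 and 30.7 CPM. The mean log2 CPM of the NK and ILC1 markers was 2.05 in W-2G, the only MCA-943 tumor with letter W. It was -0.99 to 0.15 in the MCA-943 tumors with letter a. In MCA-969 it was -1.82 to -0.84 with letter W and -2.81 to -2.57 with letter a. What lies behind this split by letter was not tested. No marker of either list was at 0 throughout a line. Of 16 macrophage and myeloid markers 3 were higher and 1 lower (25% called, near the 27% of all genes). Of 8 T-cell markers 5 were higher and 1 lower (75%), and of 4 B-cell markers 3 and 0 (75%). Erythroid markers held no call, and of 4 keratinocyte markers 1 was higher and 2 lower. Without tumor W-2D 1 myeloid marker was higher in place of 3.

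Within MCA-943 the order of the tumors by leukocyte RNA was not their order by interferon-induced RNA. The mean log2 CPM of the 10 leukocyte markers, used as a score, was 4.49, 4.05, 2.15 and 2.26 in the 4 MCA-943 tumors and 0.31 to 2.12 in MCA-969, while the mean log2 CPM of the 58 interferon-stimulated genes was 5.89, 6.04, 5.21 and 6.59 against 1.56 to 3.67. Tumor a-R of MCA-969 had a leukocyte score of 2.12, close to the 2.26 of tumor a-R of MCA-943, and their interferon means were 2.44 and 6.59. These are single tumors, set side by side because their scores were close, and such a pair cannot decide the part of leukocytes. The scores of the lines did not overlap, so score and line cannot be fully told apart. The part of leukocytes in the interferon difference was not tested. With this leukocyte score as a covariate, 53 interferon-stimulated genes, 19 MHC class I genes and 14 chemokines were called higher, and 0 of the NK and ILC1 markers. Under it 11 of the 16 macrophage and myeloid markers were called lower in MCA-943, against 1 without it. The score therefore does not adjust all leukocyte types alike. The leukocyte markers make up the score, so their own calls under it were not read. With library run as a covariate 45 interferon-stimulated genes, 17 MHC class I genes and 10 chemokines were higher, and 2 of the leukocyte and 0 of the NK and ILC1 markers. Among the genes no longer called were Ubd (log2 fold change 7.24), Oas2 (5.16), Nlrc5 (0.34), Ptprc (2.72) and Cd8a (3.95).

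Of 32 collagen genes tested, 15 were higher and 9 lower in MCA-943 (75% called, beside 27% of all genes). Higher members included the fibrillar Col1a1, Col1a2, Col3a1 and Col5a1, and lower members Col4a1 and Col4a2 of basement membranes. Col1a1 was at 14318, 13540.2, 14734 and 12559 CPM against 778 to 3569.6 CPM, with a median of 2691 (log2 fold change 2.40 ± 0.26, adjusted p = 4.4e-09) and Col3a1, the collagen of loose connective tissue, at 18825, 18687, 21191 and 18792 CPM against 1484 to 3956 CPM, with a median of 3759 (log2 fold change 2.51 ± 0.16, adjusted p = 1.5e-13). Col1a2 (log2 fold change 2.54 ± 0.26, adjusted p = 1.5e-09) and Col5a1 (log2 fold change 2.49 ± 0.19, adjusted p = 3.8e-12) were higher too. Of the basement membrane collagens, Col4a1 was at 117, 78.8, 115 and 206 CPM against 326 to 859 CPM, with a median of 601 (log2 fold change -2.20 ± 0.53, adjusted p = 7.7e-04) and Col4a2 by a log2 fold change of -2.14 ± 0.50 (adjusted p = 4.9e-04), as was the fibril-associated Col12a1, at 91.1, 87.6, 178 and 109 CPM against 352 to 1263 CPM, with a median of 598 (log2 fold change -2.51 ± 0.36, adjusted p = 9.3e-07). Tumor W-2D was the lowest MCA-969 tumor in the 4 fibrillar genes, and without it the counts were still 15 and 9. When run was a covariate they were 12 and 3, and Col4a1 and Col4a2 were not called.

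Postn, a matricellular protein of active fibroblasts, was at 10509.6, 11900.0, 13038 and 10361 CPM against 179 to 963 CPM, with a median of 831 (log2 fold change 3.94 ± 0.35, adjusted p = 1.2e-10). The small proteoglycan Lum ran the other way, at 43.1, 36.9, 37.8 and 10.5 CPM against 118 to 769 CPM, with a median of 428 (log2 fold change -3.68 ± 0.52, adjusted p = 6.6e-07). Of 41 matrix proteases and inhibitors 13 were higher and 5 lower (43.9% called, beside 27% of all genes). Higher were the gelatinase Mmp9 at 405, 317, 273 and 315 CPM against 19.1 to 82.7 CPM, with a median of 52 (log2 fold change 2.62 ± 0.25, adjusted p = 4.0e-10) and the aggrecanase Adamts5 (log2 fold change 3.43 ± 0.24, adjusted p = 1.1e-12). Lower were the stromelysins Mmp3 (log2 fold change -1.79 ± 0.49, adjusted p = 0.0024) and Mmp10 (log2 fold change -2.18 ± 0.50, adjusted p = 4.4e-04). Integrins and laminins were lower more often, with 3 of 29 higher and 10 lower (44.8% called). Lama4, of blood vessel and muscle basement membrane, was higher, at 711, 754, 871 and 622 CPM against 39.8 to 187 CPM, with a median of 109 (log2 fold change 2.73 ± 0.30, adjusted p = 9.1e-09). The laminin gene Lama5 was lower (log2 fold change -3.67 ± 0.65, adjusted p = 1.8e-05), as were the collagen receptor Itga10 (log2 fold change -3.21 ± 0.32, adjusted p = 1.1e-09) and Itga8 (log2 fold change -4.51 ± 0.32, adjusted p = 8.6e-13). Lama5 (log2 fold change -2.43) and Mmp3 were not called when run was a covariate, nor was Mmp10 among the tumors with letter a (-0.86).

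Hox genes, which encode position along the body and limb axes, separated the lines cluster by cluster. Of 30 tested, 4 were higher and 18 lower in MCA-943 (73.3% called, beside 27% of all genes). All 8 tested HoxB genes were lower, with a median log2 fold change of -6.26, and 7 of 10 HoxA genes were lower, whereas 4 of 7 HoxC genes were higher and 1 lower, and 2 of 5 HoxD genes were lower. Hoxb7 (chr11:96286623-96290162) was at 0.102, 0.173, 0.151 and 0.392 CPM against 14.3 to 19.4 CPM, with a median of 16.4 (log2 fold change -6.26 ± 0.25, adjusted p = 1.1e-17), and Hoxb3 at 0.169, 0.123, 0.113 and 0.147 CPM against 10.1 to 17.3 CPM, with a median of 14.8 (log2 fold change -6.67 ± 0.20, adjusted p = 1.2e-20). Of the posterior HoxA genes, Hoxa9 was at 0.0678, 0.173, 0 and 0.049 CPM against 11.2 to 22.8 CPM, with a median of 15.1 (log2 fold change -7.62 ± 0.42, adjusted p = 5.2e-15). Hoxa10 had a single count in all MCA-943 tumors together and 9.37 to 15.6 CPM (median 13.4) in MCA-969, a ratio of counts of 1820.5 with a 95% counting interval of 327 to 71923. Hoxa11 had 0 counts in MCA-943 and was at 0.55 to 2.92 CPM (median 1.32) in MCA-969, at least 16.5-fold higher. Their neighbour Hoxa7 lay at 21.8, 15.9, 17 and 18.3 CPM in MCA-943 and 12.7 to 25.7 CPM (median 15.9) in MCA-969 (log2 fold change 0.09 ± 0.28, adjusted p = 0.81).

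Hoxc8 (chr15:102990607-102994111) was at 64.3, 66.3, 70.5 and 59.7 CPM against 4.02 to 11.8 CPM, with a median of 8.83 (log2 fold change 2.99 ± 0.19, adjusted p = 1.7e-13), and Hoxc9 at 56.1, 52.7, 52.8 and 50.3 CPM against 2.79 to 17.2 CPM, with a median of 6.6 (log2 fold change 2.86 ± 0.27, adjusted p = 5.2e-10). Hoxc4 and Hoxc5 were higher with them, and Hoxc10, at 3.86, 4.24, 4.31 and 4.21 CPM against 1.08 to 25.4 CPM (median 9.78), was lower with overlap (log2 fold change -1.30 ± 0.43, adjusted p = 0.01). Hoxc10 was not called without the MCA-969 tumor W-1D (log2 fold change -0.97), with limma-voom (-0.89), with run as a covariate (-1.14) or in a fit to the 12 tumors alone. Of the genes lower in MCA-943, Hoxb7 and Hoxa10 had parallels in other lines. Hoxb7 was also low in MCA-972, at a mean of 0.179 CPM, and high in MCA-948 and MCA-970, at 16.2 and 12.6 CPM, and Hoxa10 was high in MCA-970 (28.7 CPM) and near 0 in MCA-948 and MCA-972 (0.0357 and 0.0392 CPM). Under the run covariate 11 Hox genes were lower in place of 18, and Hoxa11 and Hoxc10 were not called. The fitted log2 fold change of Hoxa11 there was -8.91, which is no bound at 0 counts in MCA-943.

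**Figure D3:**
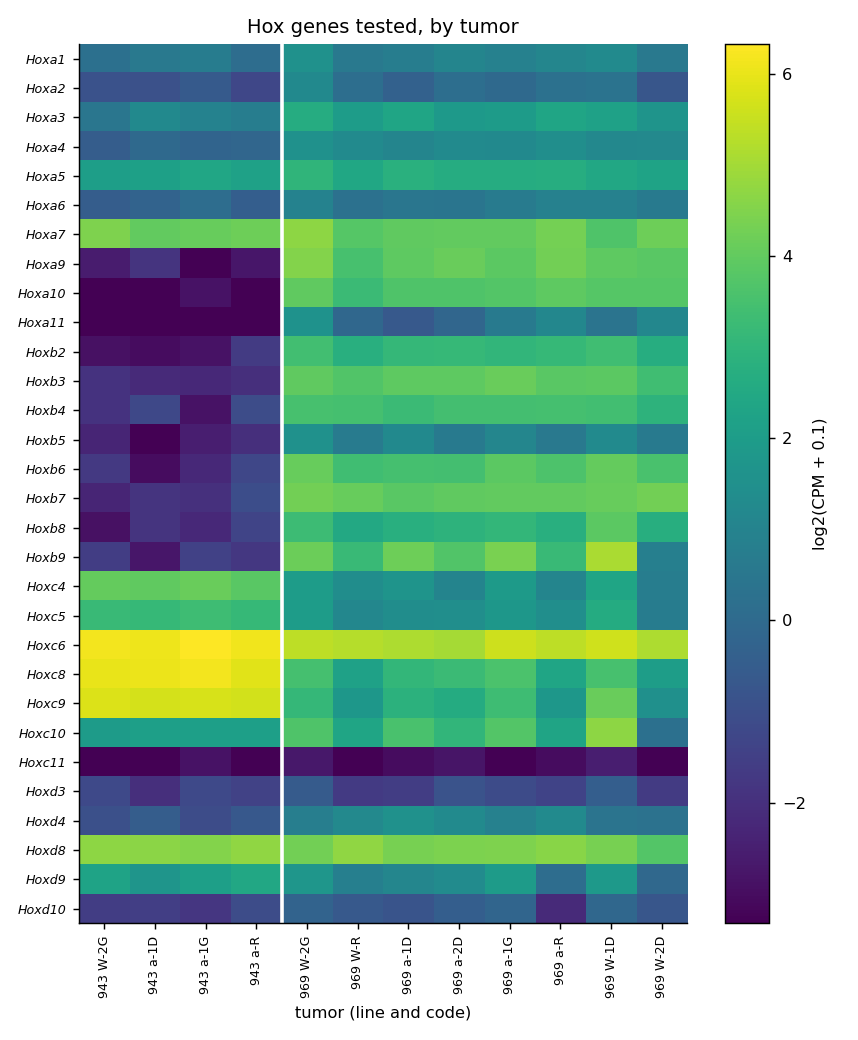
Level of the 30 Hox genes tested (rows, by cluster and number) in the 4 MCA-943 and 8 MCA-969 tumors (columns), as log2(CPM + 0.1) in colour. HoxB genes and Hoxa9 to Hoxa11 are dark in MCA-943 only, and Hoxc8 and Hoxc9 are brighter there, at 50.3 to 70.5 CPM.

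Other transcription factors of limb and trunk position were lower in MCA-943 at 20 of 46 genes tested and higher at 8. That is 60.9% called, beside 27% of all genes. Pitx1 (chr13:55825051-55836192), the factor of hindlimb identity, had no count in MCA-943 and 0.34 to 9.59 CPM (median 5.08) in MCA-969, at least 55.1-fold higher. It was also at 0 counts in MCA-948, MCA-970 and MCA-972. Lhx9 (log2 fold change -6.67 ± 0.52, adjusted p = 6.4e-12) and Gata6 (log2 fold change -5.61 ± 0.52, adjusted p = 2.5e-10) were lower, as was Shox2, a regulator of proximal limb growth, at 11, 11.6, 13.7 and 12.6 CPM against 36.6 to 80.1 CPM, with a median of 60.8 (log2 fold change -2.32 ± 0.16, adjusted p = 2.7e-13). Foxf1, a factor of splanchnic mesoderm, was higher at 32.1, 28.4, 29 and 31.9 CPM against 2.1 to 7.09 CPM, with a median of 4.01 (log2 fold change 2.88 ± 0.17, adjusted p = 3.5e-14), and Osr1 was at 38.7, 36.8, 39.9 and 34.2 CPM against 1.95 to 10.3 CPM, with a median of 4.29 (log2 fold change 2.76 ± 0.27, adjusted p = 1.1e-09). The last 3 did not overlap between the lines. With run as a covariate 10 of the list were lower, and Pitx1 was not called. Its fitted log2 fold change there was -10.50, which is no bound at 0 counts in MCA-943.

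Keratin and epithelial junction genes were more often lower than higher in MCA-943. Of 27 tested, 19 were lower in MCA-943 and 5 higher (median log2 fold change -3.18). That is 88.9% called, beside 27% of all genes. The keratin pair of simple epithelia was abundant in MCA-969, with Krt8 (chr15:101996698-102004482) at 0.136, 0.641, 0.0378 and 2.13 CPM against 209 to 625 CPM, with a median of 371 (log2 fold change -8.88 ± 0.70, adjusted p = 1.1e-11) and Krt18 at 2.2, 3.21, 3.1 and 3.62 CPM against 135 to 557 CPM, with a median of 226 (log2 fold change -6.38 ± 0.37, adjusted p = 2.0e-14). Krt8 was low in the other 3 lines as well, with means of 3.51, 0.144 and 0.173 CPM. The desmosome gene Dsp was at 0, 0.0987, 0.0756 and 0.147 CPM against 0.743 to 10.1 CPM, with a median of 6.06 (log2 fold change -5.93 ± 0.70, adjusted p = 2.6e-08) and the adhesion gene Epcam at 0.407, 0.123, 0.227 and 0.098 CPM against 1.46 to 9.25 CPM, with a median of 4.83 (log2 fold change -4.54 ± 0.49, adjusted p = 4.8e-09). The epithelial regulator Grhl2, with 2 counts over the MCA-943 tumors, was at 0.0304 to 0.237 CPM (median 0.143) in MCA-969, a ratio of 9.9 with a 95% counting interval of 2.58 to 84.4.

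The 5 that called higher were Cdh1, Cldn1, Jup, Krt7 and Lsr. Cdh1, which encodes E-cadherin, was at 6.81, 4.07, 3.48 and 3.94 CPM against 0.0619 to 0.635 CPM, with a median of 0.321 (log2 fold change 3.82 ± 0.55, adjusted p = 7.3e-07), and Jup, plakoglobin, at 227, 229, 211 and 183 CPM against 30.1 to 78.4 CPM, with a median of 51.8 (log2 fold change 2.01 ± 0.23, adjusted p = 1.3e-08), both without overlap. When run was a covariate 1 of the list was higher and 15 were lower, and Cdh1 was not called. Of 14 regulators of the epithelial-mesenchymal transition 1 was higher and 4 lower (35.7% called, beside 27% of all genes). Prrx1 (log2 fold change -1.29 ± 0.11, adjusted p = 5.1e-11), Twist2 (log2 fold change -1.36 ± 0.19, adjusted p = 3.0e-07) and Cdh2 (log2 fold change -1.29 ± 0.16, adjusted p = 3.7e-08) were lower, and Zeb1, at 173, 188, 197 and 183 CPM against 118 to 186 CPM (median 144), and Vim, at 8076, 7468, 8033 and 7422 CPM against 4337 to 5261 CPM (median 4764), were not called. Of 7 mesothelial genes 3 were lower and 0 higher (42.9% called). Among the lower was Gata4, with 0 counts in MCA-943 and 0.504 to 5.27 CPM (median 1.92) in MCA-969, at least 26.8-fold higher there. Msln overlapped at 28.7, 31, 66.6 and 26.4 CPM against 21.7 to 88.7 CPM, with a median of 44.5 (log2 fold change -0.35 ± 0.38, adjusted p = 0.44).

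Many Wnt signalling genes were lower in MCA-943. Of 49 ligands, receptors and antagonists tested, 23 were lower and 3 higher (median log2 fold change -0.86). That is 53.1% called, beside 27% of all genes. The list holds inhibitors that the pathway itself switches on. Notum, an enzyme that inactivates Wnt proteins, was at 0.203, 0.296, 0.416 and 0.539 CPM against 12 to 66.1 CPM, with a median of 20.01 (log2 fold change -6.05 ± 0.69, adjusted p = 1.4e-08). The feedback inhibitor Nkd1 was at 0.0339, 0.074, 0.0378 and 0 CPM against 1.64 to 13.1 CPM, with a median of 7.51 (log2 fold change -7.53 ± 0.76, adjusted p = 1.4e-09), and Axin2, a scaffold of the beta-catenin destruction complex, at 0.779, 1.04, 2.34 and 1.05 CPM against 3.9 to 20.9 CPM, with a median of 9.59 (log2 fold change -3.15 ± 0.44, adjusted p = 4.5e-07). None of the 3 overlapped. Of the nuclear partners of beta-catenin, Lef1 (log2 fold change -2.78 ± 0.25, adjusted p = 1.1e-10) and Tcf7 (log2 fold change -2.26 ± 0.13, adjusted p = 2.6e-14) were lower. Of the ligands, Wnt7b was at 4.27, 5.5, 8.66 and 4.7 CPM against 47 to 73.5 CPM, with a median of 58.7 (log2 fold change -3.38 ± 0.22, adjusted p = 1.3e-13) and Wnt10a was lower with it (log2 fold change -3.09 ± 0.31, adjusted p = 8.3e-10), and of the secreted antagonists Sfrp2 was at 2.14, 3.33, 3.4 and 4.19 CPM against 27.7 to 339 CPM, with a median of 104 (log2 fold change -5.46 ± 0.66, adjusted p = 4.5e-08). The higher members were Rspo2, an enhancer of Wnt signals, at 6.3, 7.06, 5.82 and 11.7 CPM against 0.279 to 0.877 CPM, with a median of 0.538 (log2 fold change 3.84 ± 0.25, adjusted p = 1.5e-13), the Wnt5a receptor Ror1 (log2 fold change 2.81 ± 0.27, adjusted p = 4.4e-10) and Wnt2.

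Growth factor receptors and the IGF axis held members of both directions. Of 38 receptor tyrosine kinase genes 10 were higher and 8 lower (47.4% called, beside 27% of all genes). Kit, the receptor of stem cell factor, was at 1.02, 0.913, 1.06 and 2.13 CPM against 36.9 to 143 CPM, with a median of 79.2 (log2 fold change -5.94 ± 0.66, adjusted p = 8.5e-09). Pdgfrb, of mesenchymal cells, was at 522, 493, 462 and 454 CPM against 55.4 to 189.9 CPM, with a median of 121 (log2 fold change 1.95 ± 0.21, adjusted p = 6.5e-09) and Egfr at 148, 163, 169 and 138 CPM against 20.4 to 60.2 CPM, with a median of 32.6 (log2 fold change 2.13 ± 0.22, adjusted p = 2.4e-09), each without overlap. Met was spread from 73.1 to 1626 CPM (median 172) in MCA-969, and its lower call (log2 fold change -1.97 ± 0.55, adjusted p = 0.0027) was lost without tumor W-1D. Of 18 IGF genes 4 were higher and 10 lower (77.8% called). The fetal growth factor Igf2 was at 0.949, 2.15, 2.19 and 2.11 CPM against 26.2 to 120.1 CPM, with a median of 56.1 (log2 fold change -5.09 ± 0.55, adjusted p = 6.5e-09), whereas Igf1 was higher, at 30.9, 45.7, 70.9 and 39.4 CPM against 4.49 to 13.8 CPM, with a median of 8.68 (log2 fold change 2.37 ± 0.32, adjusted p = 3.3e-07). The fetal RNA-binding protein gene Igf2bp3 was lower (log2 fold change -3.31 ± 0.23, adjusted p = 4.9e-13), and so was Stc1, at 6.91, 9.28, 12.9 and 7.54 CPM against 112 to 264 CPM, with a median of 168 (log2 fold change -4.24 ± 0.23, adjusted p = 7.0e-15).

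Of 40 p53, Ink4 and Rb pathway genes 4 were higher and 4 lower (20% called, beside 27% of all genes). The Ink4 locus was among them. Cdkn2a (chr4:89274471-89294653), which encodes p16Ink4a and p19Arf, was at 5.42, 28.1, 8.54 and 30.02 CPM against 431 to 622 CPM, with a median of 508 (log2 fold change -4.80 ± 0.33, adjusted p = 9.5e-13), and its neighbour Cdkn2b (chr4:89306299-89311039) at 0.779, 2.44, 1.44 and 3.97 CPM against 44.8 to 82.3 CPM, with a median of 61.4 (log2 fold change -4.79 ± 0.27, adjusted p = 8.9e-15). Both genes ran in the same order over the 4 MCA-943 tumors, W-2G lowest and a-R highest. Mtap (chr4:89137122-89181081), on the other side of Cdkn2a, lay at 209, 212, 204 and 244 CPM against 154 to 253 CPM (median 203) and was not called (log2 fold change 0.09 ± 0.12, adjusted p = 0.55). The other lines had mean Cdkn2a levels of 444, 631 and 459.6 CPM, all above the MCA-943 tumors. Trp53, which encodes p53, was at 115, 109, 109 and 116 CPM against 117 to 179 CPM, with a median of 141 (log2 fold change -0.35 ± 0.27, adjusted p = 0.28), and its targets Cdkn1a (log2 fold change -0.56 ± 0.27, adjusted p = 0.075) and Mdm2 (log2 fold change -0.64 ± 0.11, adjusted p = 7.5e-06) were not called, although Phlda3 was higher (log2 fold change 2.19 ± 0.11, adjusted p = 5.7e-16). Ccnd2, cyclin D2, was lower (log2 fold change -1.27 ± 0.24, adjusted p = 3.6e-05).

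Imprinted genes, expressed from one parental copy, differed at 19 of 30 tested, 7 higher and 12 lower in MCA-943. That is 63.3% called, beside 27% of all genes. Dlk1 was at 228, 268, 201 and 356 CPM against 1125 to 1575 CPM, with a median of 1359 (log2 fold change -2.36 ± 0.40, adjusted p = 9.0e-06), and the non-coding Meg3 of the same chromosome 12 domain at 48.8, 60.2, 42.6 and 51.3 CPM against 85.3 to 297 CPM, with a median of 164 (log2 fold change -1.75 ± 0.40, adjusted p = 4.2e-04). Rtl1, between them, had 1 count in MCA-943 and 0.7 to 2.28 CPM (median 1.21) in MCA-969, a ratio of 200.4 with a 95% counting interval of 35.8 to 7933. H19, beside Igf2, was lower (log2 fold change -1.99 ± 0.44, adjusted p = 3.3e-04). Peg12 ran the other way, at 7.76, 8.24, 8.32 and 8.38 CPM against 0 to 0.167 CPM, with a median of 0.0281 (log2 fold change 7.34 ± 0.40, adjusted p = 5.9e-15), and Grb10 was higher with overlap (log2 fold change 1.28 ± 0.36, adjusted p = 0.0029). Under the run covariate 4 of the list were lower and 5 higher, and Dlk1, H19, Meg3 and Grb10 were not called.

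Xist (chrX:103460366-103483254), the non-coding RNA of the inactive X chromosome, was at 550.3, 583, 529.9 and 543 CPM in MCA-943 and 0.0516 to 0.603 CPM (median 0.129) in MCA-969 (log2 fold change 11.55 ± 0.28, adjusted p = 6.7e-23). The Y-linked genes Ddx3y, Eif2s3y, Kdm5d and Uty went the other way, Ddx3y at 1.8, 1.9, 0.945 and 1.67 CPM against 46 to 87.7 CPM, with a median of 69.5 (log2 fold change -5.37 ± 0.24, adjusted p = 9.1e-17) and Uty at 0.847, 0.592, 0.378 and 0.514 CPM against 16.4 to 34.6 CPM, with a median of 26.5 (log2 fold change -5.46 ± 0.30, adjusted p = 4.9e-15). Counts of both were present in all 4 MCA-943 tumors. MCA-972 had Xist like MCA-943, at a mean of 481 CPM. By chromosome the median log2 fold change lay between -0.20 and 0.15 on the X chromosome and all autosomes except chromosome 15, at 0.40 with 141 genes higher (21.6%), and chromosome 3, at -0.31 with 196 genes lower (20.8%). In a fit to the 12 tumors only these medians were 0.41 and -0.30. The 20 mitochondrial genes had a median of -0.67, with 5 lower and 0 higher.

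Few cell cycle and cholesterol genes were called. Of 38 cell cycle genes 1 was called, Cks1b, lower (log2 fold change -1.09 ± 0.19, adjusted p = 1.1e-05). That call was lost without tumor W-2D (log2 fold change -0.85), and also without both tumors labelled sensitive (-0.87), among the tumors with letter a (-0.93), and with the index set (-0.97), the leukocyte score (-0.96) or a replicate block. Mki67, at 382, 344, 314 and 339 CPM against 148 to 283 CPM (median 243), did not reach the fold limit (log2 fold change 0.51 ± 0.12, adjusted p = 4.4e-04). Of 24 genes of cholesterol synthesis and uptake 1 was lower, Hsd17b7 (log2 fold change -1.28 ± 0.16, adjusted p = 5.9e-08). Both shares, 2.63% and 4.17%, were below the 27% of all genes. Of 35 genes of glycolysis and hypoxia 10 were lower and 0 higher. The share called, 28.6%, was near the 27% of all genes, but all of it was lower, beside 14.9% of all genes lower. The carbonic anhydrase gene Car12 was at 2.58, 7.03, 8.66 and 5 CPM against 69.1 to 133 CPM, with a median of 111 (log2 fold change -4.16 ± 0.31, adjusted p = 4.9e-12) and the glucose transporter Slc2a1 at 134, 125, 157 and 89.9 CPM against 233 to 631 CPM, with a median of 363 (log2 fold change -1.68 ± 0.29, adjusted p = 1.6e-05), and Ldha was not called (log2 fold change -0.50 ± 0.17, adjusted p = 0.011). Endothelial markers moved with them, 6 of 13 being lower and 0 higher (46.2% called). Their summed levels were 93.8 to 213 CPM in MCA-943 and 137 to 400 CPM in MCA-969. Of 6 pericyte markers 5 were lower and 1, Cspg4, higher (100% called), with summed levels of 164 to 228 CPM and 73.2 to 179 CPM. The part of endothelial cells and pericytes in the hypoxia genes was not tested. With run as a covariate 4 of the hypoxia genes (2 others were higher), 0 of the endothelial and 0 of the pericyte markers were lower, and Slc2a1 was not called.

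Of 27 NRF2 targets 3 were higher and 3 lower (22.2% called, near the 27% of all genes), with the antioxidant enzyme Gsta4 lower (log2 fold change -4.11 ± 0.37, adjusted p = 1.6e-10). Of 10 genes of the aryl hydrocarbon receptor pathway, through which methylcholanthrene acts, 2 were higher and 1 lower (30% called, also near that share). Cyp1b1, a target of that receptor, was at 9.18, 8.12, 10.02 and 16.9 CPM against 0.279 to 2.73 CPM, with a median of 1.35 (log2 fold change 2.97 ± 0.45, adjusted p = 1.8e-06), while the receptor gene Ahr was lower (log2 fold change -1.87 ± 0.26, adjusted p = 4.1e-07).

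Lineage genes were mixed. Of 15 smooth muscle and myofibroblast genes 5 were higher and 3 lower (53.3% called, beside 27% of all genes). Acta2, the actin of myofibroblasts, was at 636, 654, 707 and 564 CPM against 32.9 to 182 CPM, with a median of 99.5 (log2 fold change 2.55 ± 0.37, adjusted p = 1.1e-06). Tagln was higher with it (log2 fold change 1.89 ± 0.37, adjusted p = 7.5e-05). Of 22 cartilage and bone genes 5 were higher and 11 lower (72.7% called). Hapln1, a link protein of cartilage matrix, was at 0.0678, 0.123, 0.0378 and 0.171 CPM against 3.97 to 25 CPM, with a median of 15.2 (log2 fold change -7.05 ± 0.56, adjusted p = 9.9e-12), Acan, aggrecan, had 0 counts in MCA-943 and 0.217 to 3.24 CPM (median 1.08) in MCA-969, at least 13.8-fold higher, and Sox9 overlapped (log2 fold change -0.49 ± 0.25, adjusted p = 0.097). When run was a covariate 3 of this list were lower and Acan was not called (fitted log2 fold change -6.52, no bound at 0 counts). Of 13 Schwann and neural crest genes 6 were higher and 3 lower (69.2% called). Among the higher was the adhesion gene L1cam at 39.7, 31, 22.1 and 29.7 CPM against 0.663 to 1.5 CPM, with a median of 0.846 (log2 fold change 5.03 ± 0.32, adjusted p = 1.3e-13). Among the lower was Gap43 (log2 fold change -2.05 ± 0.31, adjusted p = 2.1e-06). Of 16 skeletal muscle genes 4 were higher and 2 lower (37.5% called), and of 6 adipocyte genes 1 and 2 (50%), beside 27% of all genes. Run as a covariate also moved the smooth muscle counts to 8 and 0, those of the cadherins below to 6 and 7, of the receptor tyrosine kinases above to 10 and 4 and of the transition regulators to 4 and 4.

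**Figure D4:**
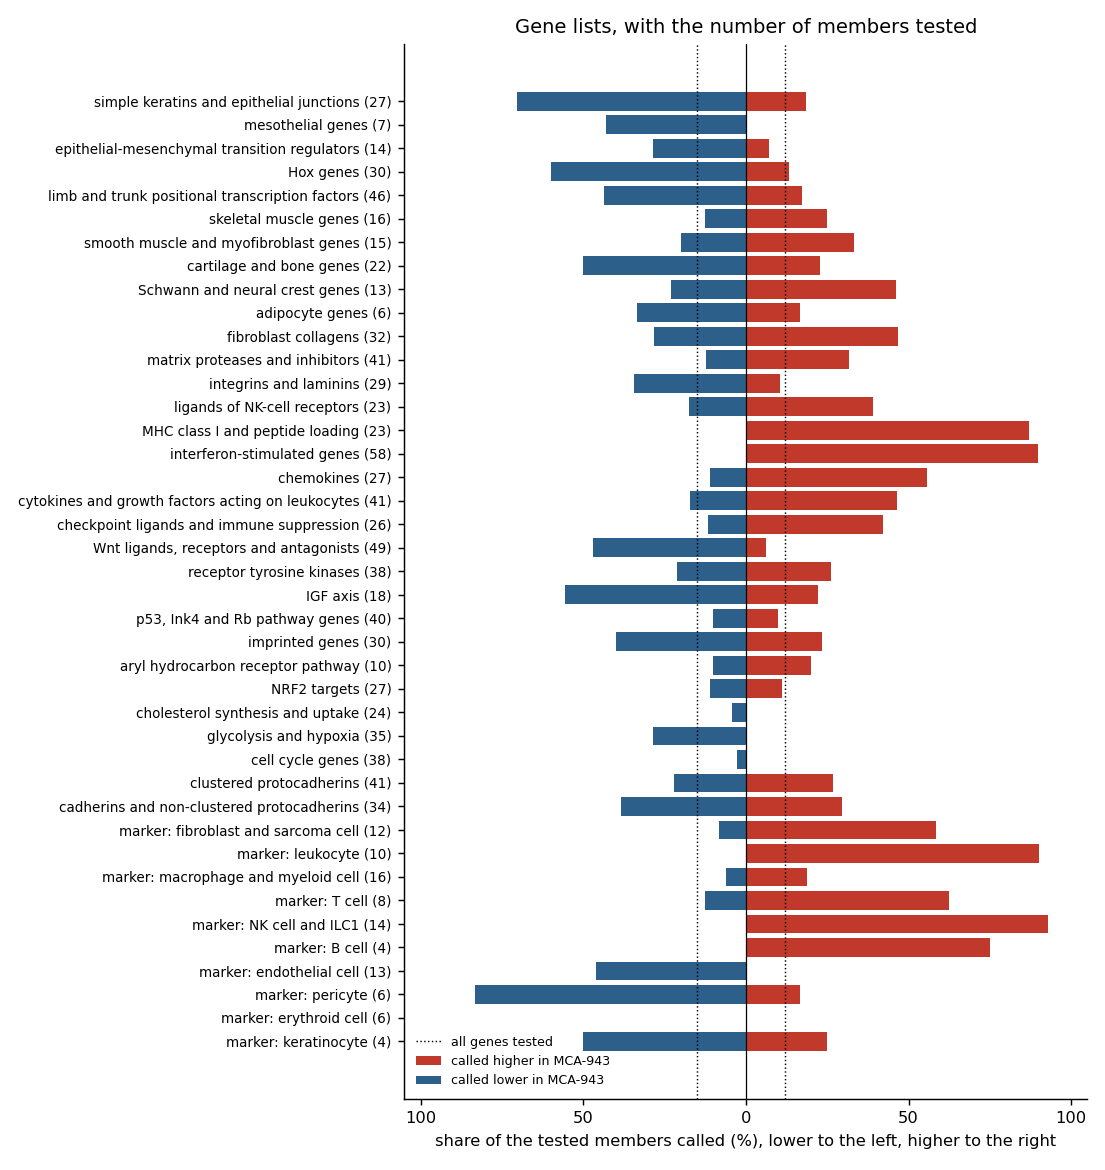
Share of the tested members of each gene list called higher (red, to the right) and lower (blue, to the left) in MCA-943, with the number tested in brackets; dotted lines mark the 12.1% and 14.9% of all genes tested. Interferon-stimulated genes and MHC class I reach 52 of 58 and 20 of 23 on the right with none on the left, and keratins and junctions reach 19 of 27 on the left.

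Cadherins differed in both directions. Of 34 cadherin and non-clustered protocadherin genes 10 were higher and 13 lower (67.6% called, beside 27% of all genes). Cdh11, of mesenchymal cells, was at 557, 584, 521 and 654 CPM against 106 to 254 CPM, with a median of 171 (log2 fold change 1.66 ± 0.37, adjusted p = 3.6e-04). Dchs1 was lower (log2 fold change -2.03 ± 0.13, adjusted p = 1.9e-13). Of 41 clustered protocadherin genes, which share exons within a cluster so that their counts are uncertain, 11 were higher and 9 lower (48.8% called). Pcdhgb1 was at 44, 48.4, 49.6 and 35.1 CPM against 0.0619 to 0.487 CPM, with a median of 0.254 (log2 fold change 7.36 ± 0.26, adjusted p = 4.5e-19), and Pcdhga11 at 0.102, 0.296, 0.189 and 0.343 CPM against 11.1 to 17.8 CPM, with a median of 14.1 (log2 fold change -5.88 ± 0.35, adjusted p = 2.6e-14). Both lie in the gamma cluster.

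The 11 genes that the study names in its sequencing results were picked there on these same tumors by their level in lines of unlike sensitivity, so their counts are no independent evidence. Of them 2 were higher and 2 lower (36.4% called, beside 27% of all genes). Plet1, a surface protein of epithelial progenitors, was at 141, 103, 118 and 126 CPM against 7.75 to 35.1 CPM, with a median of 13.2 (log2 fold change 2.95 ± 0.24, adjusted p = 1.4e-11), without overlap, and lay at or below 0.323 CPM on average in the other lines. Musk, a receptor of the neuromuscular junction, was at 2.14, 1.87, 3.44 and 1.71 CPM against 0 to 0.223 CPM, with a median of 0.0748 (log2 fold change 4.41 ± 0.40, adjusted p = 1.5e-10). Pcdh17 (log2 fold change -2.90 ± 0.49, adjusted p = 1.1e-05) and Pcdhgb7 (log2 fold change -1.54 ± 0.21, adjusted p = 3.9e-07) were lower in MCA-943. Not called were Tnfsf11, at 19.6, 13.5, 13.4 and 14.7 CPM against 5.21 to 75.8 CPM (median 9.66), Rasa4 (log2 fold change 0.45 ± 0.22, adjusted p = 0.083), Ifitm1 (log2 fold change 0.33 ± 0.30, adjusted p = 0.34), Pcdhga5 (log2 fold change 0.03 ± 0.42, adjusted p = 0.96) and Pcdhgb2 (log2 fold change 0.15 ± 0.23, adjusted p = 0.58). Ntm had 1 count in MCA-943 and 18 in MCA-969, a ratio of 8.29 with a 95% counting interval of 1.31 to 345. It was not called, but was called lower when any one of 5 tumors was left out (W-2G, a-1D, a-2D or W-2D of MCA-969 or a-R of MCA-943), and by DESeq2. Vsir was not called either (log2 fold change 0.86 ± 0.22, adjusted p = 0.0011), though it was called higher without the MCA-969 tumor W-R (log2 fold change 1.04), among the tumors with letter a (1.02), and with the index set (1.09) or run (1.76) as a covariate.

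For 50 genes the lines stood at opposite ends of the 5, each being called against all 3 other lines in the opposite direction, comparisons that share tumors. In 9 of them MCA-943 was highest and MCA-969 lowest, and in 41 the reverse. Gata3, a transcription factor of lymphoid and epithelial fate, was at 13.6, 11.3, 10.5 and 13.7 CPM in MCA-943 and 0.186 to 0.457 CPM (median 0.363) in MCA-969, with means of 0.897, 3.63 and 1.87 CPM in MCA-948, MCA-970 and MCA-972. Aoc3, an amine oxidase of vessel walls and fat, was at 35.9, 33.4, 35 and 34.8 CPM against 0.768 to 3.71 CPM (median 1.87), between means of 4.42, 8.22 and 6.11 CPM. Of the reverse kind, Iqgap2, a scaffold of the cytoskeleton, was at 5.93, 6.39, 5.59 and 5.93 CPM against 91.7 to 162 CPM (median 122), with 58.9, 55.1 and 32.5 CPM in the other lines. Fgf10, a growth factor of limb and lung mesenchyme, was at 0.373, 0.543, 0.378 and 0.539 CPM against 5.21 to 26.3 CPM (median 12.2). The EGF receptor ligand Tgfa, with 2 counts in MCA-943, was at 0.774 to 2.46 CPM (median 1.52) in MCA-969, a ratio of 116 with a 95% counting interval of 31.9 to 959. Kit, Stc1, Nptx1, Lama1 and Nkd1, described above, were of this kind too. With limma-voom the numbers were 13 and 27, and with run as a covariate 12 and 24.

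**Figure D5:**
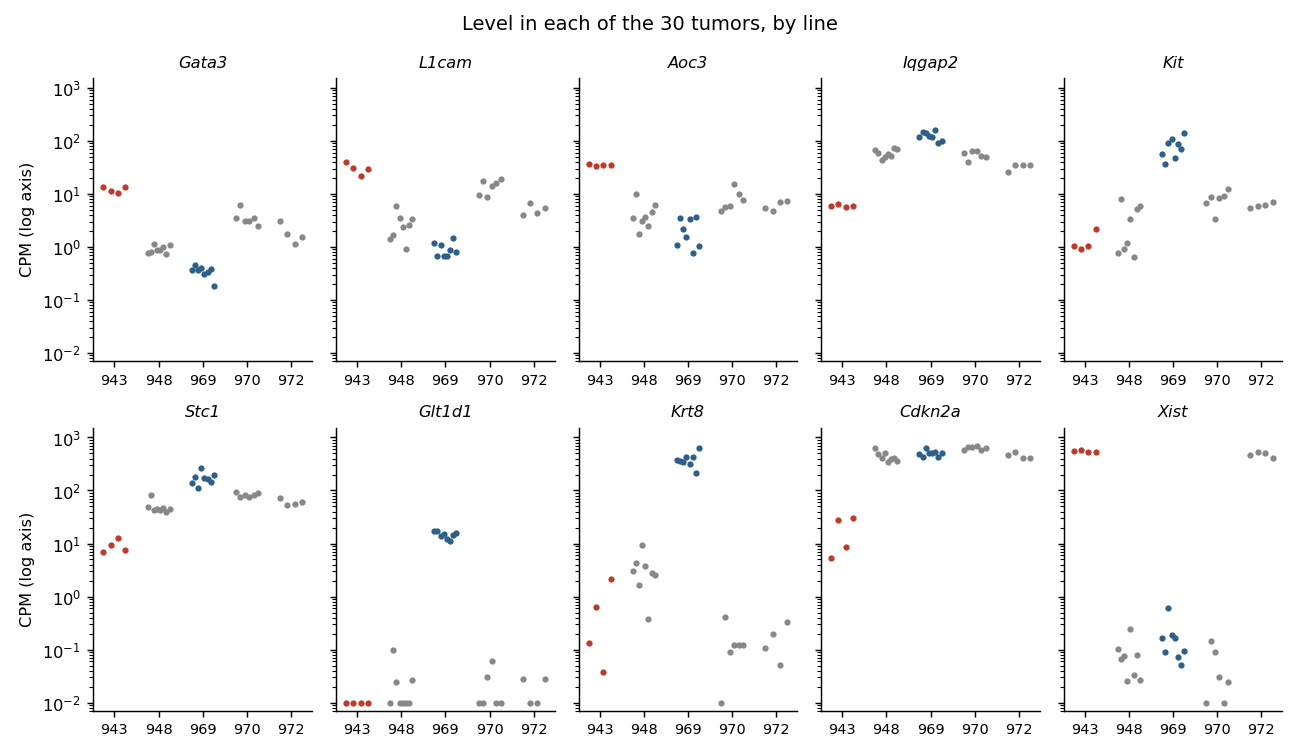
Levels of 10 genes in CPM on a log axis in each of the 30 tumors by line, MCA-943 in red, MCA-969 in blue and the other lines in grey; values under 0.01 are drawn at 0.01. Gata3, L1cam and Aoc3 are highest in MCA-943 and lowest in MCA-969, Iqgap2, Kit and Stc1 the reverse, and Glt1d1 lies between 11.4 and 16.9 CPM in MCA-969 and near 0 elsewhere.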

How the data were processed

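Bulk RNA of 30 tumors was sequenced in the study after CD45+ cells had been removed. Reads were aligned to GRCm38 with STAR 2.5.3a, duplicates were removed through molecular identifiers and reads per gene were counted with featureCounts, version 1.5.2 in the submitters' processing notes, Picard being named there too. Strand setting, annotation and the treatment of reads with several matches are not given in the sources used here, so overlapping, antisense and near-identical genes are uncertain. The authors deposited unnormalized counts for 48440 genes, of which 48058 were named with GENCODE mouse release 21, the source of the GRCm38 coordinates. No value column was left unused.

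Genes were filtered with filterByExpr by line, leaving 16862, and tested with edgeR 4.0.16 (R 4.3.3, TMM, robust quasi-likelihood test) over all 30 tumors, so that all lines share the estimate of spread, with 1 mean per line and no covariate. Adjusted p values throughout are Benjamini-Hochberg values over all genes tested, ± is the standard error, and genes were called at an adjusted p under 0.05 with a log2 fold change of 1 or more in either direction. Levels are TMM-scaled CPM without a prior count, and mean log2 values used a prior count of 2. The spread is that between grafts of a line, which may be technical in part. A gene with 0 counts in a line was given a bound from 3 counts per library, and ratios with 1 to 3 counts an exact interval at 95%, both covering counting error only. In simulated data for this comparison, 158, 178 and 194 of 200 genes changed by 1.5, 2 and 4 on the log2 scale were called among 16862, with 3, 5 and 5 others. There every line had the same means, apart from those genes in MCA-943, and run had no effect. The few other calls therefore do not give a rate for the real tumors, whose lines and runs differ.

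Named were the 12 protein-coding genes in each direction with the largest absolute log2 fold change among called genes without overlap and at least 10 CPM in the higher line, the 11 genes the study names, and members of the gene lists, those with large changes and those that define a list. Some members are not reported here. There were 33 lists and 10 of cell type markers. The members and lists were chosen with earlier results of these data known. Gene starts and promoter stretches came from RefSeq. DESeq2 1.42.0, limma 3.58.1 voom, other filters, thresholds, covariates and sample sets were tried as alternatives. Figures were drawn with matplotlib 3.10.9.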

Additional observations from a re-analysis of the deposited data

Results flagged for a closer look

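In 57 of 553 groups of tumors examined (4 MCA-943 or 8 MCA-969 tumors, for named genes as log2 CPM and for gene lists as mean log2 CPM), 1 tumor lay far from the rest. The measure was its gap to the nearest other tumor as a share of the whole range. For independent groups chance gives such a tumor in about 1 of 20. The groups here share tumors and genes, so the 57 cannot be read against that rate.

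Tumor W-2D of MCA-969 was that tumor in 31 groups. It was lowest for the matrix genes Col1a1 (0.682), Col1a2 (0.663), Col3a1 (0.752), Col5a1 (0.670), Col6a3 (0.607), Postn (0.746), Lama4 (0.561), Matn2 (0.759) and the actin gene Acta2 (0.609). It also stood apart in the mean of the collagens (0.570), integrins and laminins (0.564), smooth muscle genes (0.606) and fibroblast markers (0.623). The same held for the means of positional transcription factors (0.542), Wnt genes (0.653), receptor tyrosine kinases (0.651), the IGF axis (0.573), imprinted genes (0.543), clustered protocadherins (0.530) and cadherins (0.611). Single genes with W-2D apart were Extl1 (0.533), Cadps (0.533), Ccl25 (0.676), Hoxb9 (0.558), Pitx1 (0.683), Krt18 (0.548), Grb10 (0.607), Ldha (0.704), Cks1b (0.724), Ahr (0.549) and Gata3 (0.539).

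Of the other MCA-969 tumors, W-1D stood apart in Csmd1 (0.536), Raet1e (0.566), Cd24a (0.540), Prrx1 (0.573) and Met (0.529), W-R in Hoxa10 (0.567), Tnfsf11 (0.600), Notum (0.578), Igfbp3 (0.575), Mki67 (0.592) and the mean of the cytokines (0.546), and a-1D in Xist (0.544) and the means of B-cell (0.651) and keratinocyte markers (0.755).

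In MCA-943, tumor a-1G stood apart in Csf3 (0.888), Col3a1 (0.941) and the mean of the cholesterol genes (0.887), a-R in Lum (0.891), Igf2bp3 (0.927) and Kdr (0.925), W-2G in Cd80 (0.843) and Igf2 (0.951), and a-1D in Snai2 (0.851). In Hoxa10, Ntm and Rtl1 a single count in a-1G, a-R and a-R, beside 0 in the other 3 tumors, gave the largest share possible, 1.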

How the results depend on the processing

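Counts of genes higher and lower in MCA-943 were 5030 and 5386 without a fold threshold and 902 and 1266 at a log2 fold change of 2, where list members called were 157 and 143. With a mean of at least 1 CPM 1449 genes were lower. DESeq2 kept 4492 of the 4549 calls, limma-voom 4312, library run as a covariate 2798 (95 genes changed sign, none of them called) and the leukocyte score 3687 (145 changed sign, 12 of them called). With run as a covariate, list members lower were 134, Hox genes lower 11, collagens lower 3, keratins and junctions higher 1 and Wnt genes higher 5, and genes with MCA-969 highest and MCA-943 lowest of the lines 24, against 27 with limma-voom. Keratins and junctions higher were 3 with a mean of at least 1 CPM (lower 10), in the 12 tumors alone, in the tumors with letter a and at a log2 fold change of 2, where Hox genes lower were 11. Without a fold threshold Hox genes higher were 7 and Wnt genes higher 9, and limma-voom gave 5 Wnt genes higher. For none of these was the cause tested, apart from thresholds and filters, which call or test fewer or more genes by construction.

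Leaving out 1 tumor at a time gave 1971 to 2085 genes higher and 2426 to 2625 lower, 52 to 53 interferon-stimulated and 20 MHC class I genes higher, 15 to 18 Hox genes lower and 3 to 5 Wnt genes higher (5 without MCA-969 W-R). Of 202 named genes called, 39 were lost with run, 9 with the leukocyte score and at most 3 without any single tumor. With the leukocyte score the log2 fold change turned to -0.24 for Cd48, -0.22 for Ptprc (itself a member of the score), -0.50 for Ncr1, -0.71 for Gzmb, -1.52 for Adgre1 and -1.25 for C1qa, and with run to -3.25 for Ncr1, -0.99 for Gzmb and 0.30 for Igfbp3. With title letter and code as a replicate block 1973 genes were higher and 2389 lower. Same-coded tumors correlated at 0.025, 0.279, 0.058 and -0.169 in their deviations, 1 of the 4 best with its own code, so the codes were not taken as pairs. Levels per kilobase were not used. Sums of CPM over a list, and the part of single genes in them, therefore depend on gene length.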
